A study of Mus musculus with 11 samples.

Results

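The genes of the MHC class II antigen presentation machinery were examined in colon tissue of mice whose T cells lack TFAM, with and without a transfer of CD4 T cells. Members were the rows of the deposited table whose Ensembl identifier maps to H2-Aa, H2-Ab1, H2-Eb1, H2-DMa, H2-DMb1, H2-DMb2, H2-Oa, H2-Ob, Cd74 or Ciita, which gave 10 of the 22836 genes in the table. All 10 were also among the 16781 genes abundant enough to test, that is with 10 or more normalized counts on average over the 11 libraries. A normalized count is a read count divided by 1 factor per library.

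RNA of colon tissue had been sequenced in 3 libraries of control mice (Tfam fl/fl). A further 3 were of the genotype Tfam fl/fl Cd4 Cre and 5 of that same genotype given CD4 T cell therapy. All mice were adult. Whole colon here means tissue not sorted into cells. The paper's methods describe RNA from a short length of frozen tissue, and which part of the colon was taken is not given. All groups carry the floxed Tfam allele. The Cre is driven by the Cd4 promoter and removes the mitochondrial transcription factor TFAM from CD4 and CD8 T cells alike, and the recipients keep their own TFAM-deficient T cells beside the donor cells from young congenic mice. Below, the groups are called control, KO and transferred colon, and the comparisons ask how far class II expression moved in KO colon and where it stood after the therapy.

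MHC class II molecules are pairs of an alpha and a beta chain that show peptides from the endosome to CD4 T cells. The invariant chain, encoded by Cd74, fills the peptide groove of a new molecule; H2-DM then exchanges its remnant for other peptides, and H2-O restrains H2-DM. The coactivator CIITA, which interferon gamma induces, turns these genes on together in dendritic cells, B cells and macrophages and, during inflammation, also in the gut epithelium.

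Of the members, 8 lie within 224335 bases of chromosome 17 (GRCm39, chr17:34311314-34535648), in the mouse MHC. Ciita lies on chromosome 16, and Cd74 lies on a further chromosome. The annotated spans of H2-Aa and H2-Eb1, which are read in opposite directions, overlap by 2563 bases. Reads from that stretch are uncertain, because the strand setting of the counter is not given in the sources used here.

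The class II promoters are known for a short array of sites that CIITA and its partners occupy, among them an X box and a CCAAT box. The windows from 250 bases before to 50 bases after the annotated start of each gene's canonical transcript were searched on both strands for GATTGG (the CCAAT box) and AACNGATG (an X box core). The 120 bases before the start are shown for the 3 classical chains and for a chain each of H2-DM and H2-O, since these genes moved together or apart in the results that follow. Capitals mark the matches to those 2 motifs (GRCm39, 5′ to 3′ on the gene's strand):
H2-Aa (minus strand, chr17:34506798-34506917): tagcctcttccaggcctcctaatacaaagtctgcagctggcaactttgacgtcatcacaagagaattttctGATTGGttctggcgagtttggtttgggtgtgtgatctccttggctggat
H2-Ab1 (plus strand, chr17:34482063-34482182): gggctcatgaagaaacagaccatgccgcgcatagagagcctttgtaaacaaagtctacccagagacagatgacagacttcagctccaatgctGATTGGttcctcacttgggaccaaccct
H2-Eb1 (plus strand, chr17:34524693-34524812): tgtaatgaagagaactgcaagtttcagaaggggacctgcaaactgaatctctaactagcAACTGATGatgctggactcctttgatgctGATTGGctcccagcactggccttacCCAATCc
H2-DMa (plus strand, chr17:34354440-34354559): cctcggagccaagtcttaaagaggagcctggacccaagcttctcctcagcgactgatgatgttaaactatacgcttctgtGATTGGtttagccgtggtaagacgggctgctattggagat
H2-Ob (plus strand, chr17:34457716-34457835): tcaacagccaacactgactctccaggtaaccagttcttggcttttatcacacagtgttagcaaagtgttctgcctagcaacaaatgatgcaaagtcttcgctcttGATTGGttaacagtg

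GATTGG was in 7 of the 10 member windows and in 19.4% of the windows of all 14345 tested protein-coding genes. In these 7, which were H2-Aa, H2-Ab1, H2-Eb1, H2-DMa, H2-DMb2, H2-Oa and H2-Ob, 1 match in the gene's own direction began between positions -49 and -5, counted from the first transcribed base as 1. AACNGATG was in 3 member windows (H2-Eb1, H2-DMb1 and H2-DMb2) and in 1.94% of all windows. H2-Eb1 held both motifs with 21 bases between them and H2-DMb2 with 22. Both motifs together were in 0.362% of all windows. The paralogues H2-DMb1 and H2-DMb2 were alike around this site, shown here because the 2 genes differed in their expression (capitals mark the X box core):
H2-DMb1 (chr17:34372062-34372091): gtttacctagtAACTGATGatgctaggctg
H2-DMb2 (chr17:34364091-34364120): gtttacctattAACCGATGatgctaggcta

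Over these 30 bases 27 were identical. With positions counted from 1 at the 5′ end and the H2-DMb1 base first, the differences were G10T, T15C and G30A, of which T15C falls in the letter that the motif leaves free. The X box core began at position 28 in H2-DMb1, after the annotated start, and at position -72 in H2-DMb2. The windows ended 50 bases after the start. In H2-DMb1 a CCAAT box spaced from the X box core as in H2-Eb1 and H2-DMb2 would lie beyond that end, so the search could not find it. TTCNNNGAA, the form of a gamma-activated site, was in the windows of Ciita and H2-DMb2 and in 7.62% of all windows. GAAANNGAA, an interferon-response form, was in that of H2-DMb2 alone among the members and in 8.16% of all windows. In the member windows no match overlapped a match of another motif. A match is a description of the letters and not of binding. Nor does a window without a match lack the box, since variants of the letters were not counted. The stretch of H2-DMa shown above holds GACTGATG, that of H2-Ab1 GACAGATG and that of H2-Ob AACAAATG. Each is 1 letter away from the X box core searched. The window of H2-Oa, which is not shown, holds GACAGATG as well. Such near matches were thus found in genes of H2-O as well as in H2-DMa and H2-Ab1.

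Libraries held 18214741 to 19178986 reads in genes. Mitochondrial genes took 4.63% to 6.73% of them in control, 2.55% to 3.44% in KO and 3.84% to 4.82% in transferred colon, so that KO lay below both other groups, and the part of this in the class II differences was not tested. Tfam, which Cre removes only from T cells, had 1054, 1102 and 1040.3 normalized counts in KO colon and 1083, 977 and 1018 in control colon (log2 fold change 0.06 ± 0.10 SE, adjusted p = 0.678 with limma), so whole-colon RNA did not check the deletion. Its level in transferred colon was 865 to 1090.5. Cd4, whose product binds class II, had 46.7 to 99.2 normalized counts in control, 263 to 358 in KO and 80.5 to 345 in transferred colon. The epithelial markers Epcam, Vil1 and 9 others were detected in all groups, and their summed level was 305976 to 377507 in control, 359658 to 461778 in KO and 317981 to 443204 in transferred colon. The sum of 8 smooth muscle markers was 224612 to 277677 in control, 31713 to 46345 in KO and 96311 to 156328 in transferred colon, and its part in the class II differences was not tested. In bulk tissue, fewer cells of a type and less RNA per cell cannot be told apart.

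In KO colon all 10 members rose. H2-DMb1 and Ciita rose most, 26.3-fold and 31.6-fold, the classical chains rose 11.04-fold to 14.4-fold, and H2-DMb2 and H2-Ob rose least, 4.31-fold and 4.35-fold. Every KO library lay above every control library for all 10 genes, as it did for 29.0% of all genes tested. Rises past the test made up 22.7% of all genes tested, and differences in either direction 45.5%. The split of all calls was 3805 higher and 3836 lower, and 1844 and 4706 when libraries were scaled to their epithelial markers, under which all 10 members still rose. The median log2 fold change of the members was 3.62, beside 0.02 over all genes. Tests were made with limma on log2(normalized count + 1), with Benjamini-Hochberg adjustment over all 16781 genes, and folds are on that scale.

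H2-Aa, the alpha chain of I-A, had 1222, 1183 and 1798 normalized counts in the control libraries. It had 20522, 17878 and 21397 in KO colon and 8923, 6912, 11183, 12607 and 6985 in transferred colon. The 3 groups were apart from each other, with transferred colon between the others. The log2 fold change was 3.85 ± 0.24 SE in KO against control (adjusted p = 4.29e-06), -1.13 ± 0.21 in transferred against KO (adjusted p = 0.00261) and 2.72 ± 0.21 in transferred against control (adjusted p = 0.000141).

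H2-Ab1, which encodes the beta partner of that chain, followed it closely. Its normalized counts were 1366, 1154 and 1960.3 in control, 19541, 18938 and 21174 in KO and 9179, 6934, 9811, 11610.5 and 7515 in transferred colon. KO libraries again lay above all transferred libraries and these above all controls. KO differed from control by a log2 fold change of 3.77 ± 0.21 SE in KO against control (adjusted p = 2.95e-06, limma). The log2 ratio of H2-Aa to H2-Ab1 stayed between -0.16 and 0.19 in all 11 libraries, while the level of each gene ranged over an order of magnitude.

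H2-Eb1, the beta chain of I-E, rose with them. The symbol of its alpha partner, H2-Ea, matched no gene in the table, so H2-Eb1 does not speak for the I-E pair. It had 1232, 1048 and 1636 normalized counts in control, 14772, 13406 and 14379 in KO and 6656, 4159, 6883, 8062 and 4642 in transferred colon, with no overlap between groups. Its log2 ratio to H2-Ab1 was -0.26 to -0.14 in control, -0.56 to -0.40 in KO and -0.74 to -0.46 in transferred colon, so that every library of the Cre genotype lay below every control library. H2-Eb2, a further class II beta chain gene outside the members, had far lower counts, 8.82 to 20.7 in control, 43.6 to 97.9 in KO and 16.1 to 63.0 in transferred colon. It rose in KO colon (log2 fold change 2.44 ± 0.52 SE, adjusted p = 0.00275, limma).

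Cd74, the invariant chain gene, was the most abundant member per length of transcript in every group. Control libraries had 2872, 2454 and 4303 normalized counts, KO libraries 56665, 57556 and 65391, and transferred libraries 26833, 19754, 33005, 36519.8 and 19439. The groups did not overlap. The log2 ratio of Cd74 to H2-Ab1 was 1.07 to 1.13 in control, 1.54 to 1.63 in KO and 1.37 to 1.75 in transferred colon, so Cd74 stood higher beside its client chain in all libraries of the Cre genotype than in any control library.

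**Figure D1:**
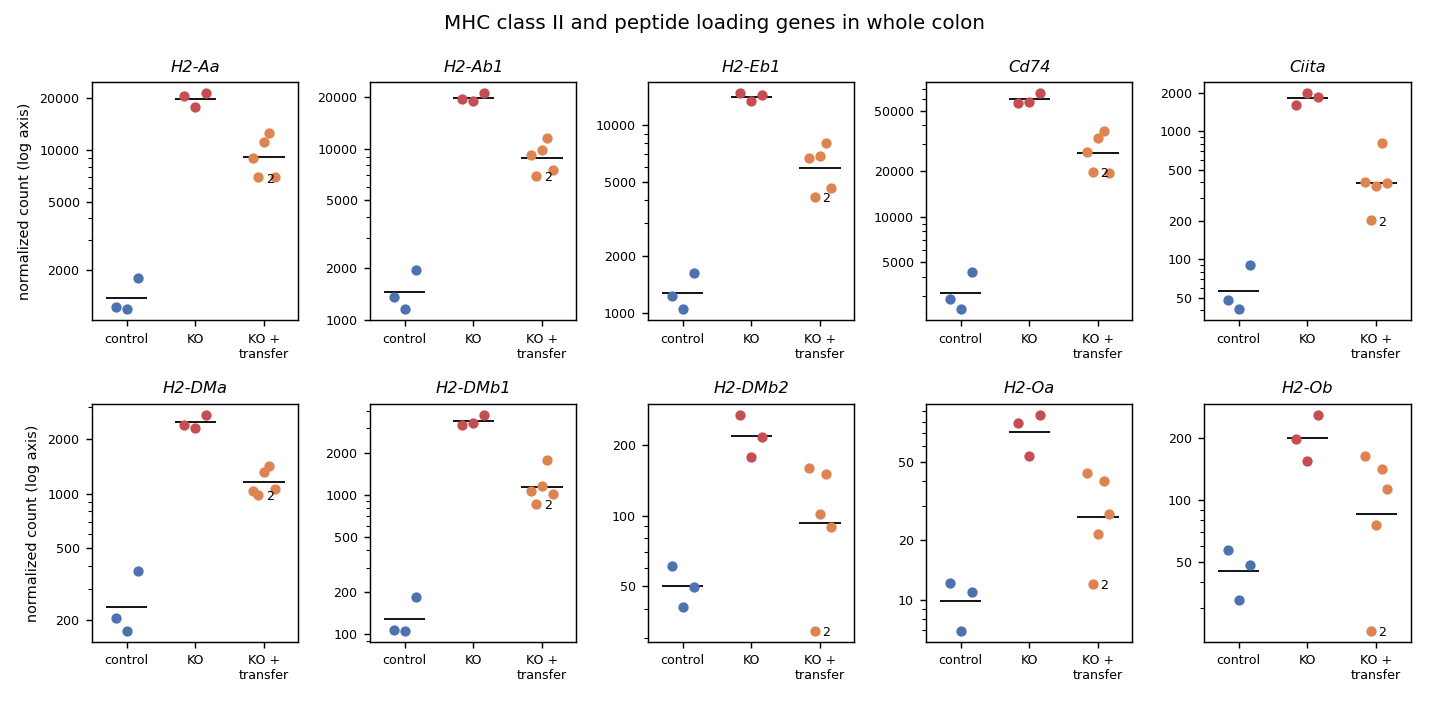
Normalized counts (log axis) of the 10 class II and peptide loading genes in the 3 control, 3 KO and 5 transferred (KO + transfer) libraries; each point is a library, the line is the mean on the log2(count + 1) scale and the digit 2 marks transferred replicate 2. In 7 genes the 3 groups are apart, and in H2-DMb2, H2-Oa and H2-Ob transferred replicate 2 lies in or below the range of the control libraries.

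Ciita, the coactivator gene, had 48.0, 40.8 and 90.4 normalized counts in control colon. In KO colon it had 1607, 1987 and 1846. In transferred colon it had 403, 201, 371, 817 and 395, again between the other groups and without overlap. Its fall from KO to transferred colon was 4.55-fold (log2 fold change -2.19 ± 0.37 SE, adjusted p = 0.00149, limma), whereas the falls of the classical chains and Cd74 were 2.20-fold to 2.40-fold. H2-Ab1 stood above Ciita by a log2 ratio of 4.42 to 4.80 in control, 3.25 to 3.60 in KO and 3.83 to 5.10 in transferred colon, so KO libraries had the lowest ratios, without overlap. Ciita is known to be read from several promoters, and counts per gene do not separate them.

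H2-DMa and H2-DMb1 each encode a chain of H2-DM. H2-DMa had 205, 175 and 374 normalized counts in control, 2397, 2312 and 2719 in KO and 1038, 986, 1323, 1421 and 1058 in transferred colon. H2-DMb1 had 106, 105 and 186 in control, 3164, 3276 and 3754 in KO and 1061, 865, 1154, 1769 and 1006 in transferred colon. In both genes the groups were apart, with log2 fold changes in KO against control of 3.37 ± 0.24 SE for H2-DMa (adjusted p = 5.82e-06) and 4.72 ± 0.26 for H2-DMb1 (adjusted p = 2.95e-06, limma).

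H2-DMb2, the paralogue of H2-DMb1, behaved differently. It had 61.2, 40.8 and 49.6 normalized counts in control, 269, 177 and 217 in KO and 159.7, 32.2, 101, 151 and 89.8 in transferred colon. All KO libraries were above the rest, and transferred replicate 2 was below every control library. Between H2-DMb1 and H2-DMb2 the log2 ratio was 0.79 to 1.89 in control, 3.55 to 4.20 in KO and 2.72 to 4.71 in transferred colon, without overlap between control and either other group. Of the 100-base words of the H2-DMb1 transcript, 13.7% also occur in that of H2-DMb2, and how the counter treated reads from such shared stretches is not given in the sources used here.

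H2-Oa and H2-Ob encode H2-O, the inhibitor of H2-DM. H2-Oa had 12.2, 6.96 and 11.03 normalized counts in control, 78.3, 53.3 and 86.5 in KO and 43.8, 12.1, 21.6, 40.0 and 27.4 in transferred colon. H2-Ob had 57.5, 32.8 and 48.5 in control, 198, 155 and 259.5 in KO and 163, 23.1, 75.7, 141 and 113 in transferred colon. Both rose in KO colon, H2-Oa by 6.67-fold (adjusted p = 0.000477) and H2-Ob by 4.35-fold (adjusted p = 0.0111, limma). In transferred replicate 2 H2-Oa was within the control range and H2-Ob below it, while the other 4 transferred libraries were above all controls in both genes.

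RNA ratios of an H2-DM chain to an H2-O chain set the Cre genotype apart from control for 1 pair of chains and not for the other. The log2 ratio of H2-DMb1 to H2-Ob was 0.88, 1.65 and 1.92 in control, 3.99, 4.39 and 3.85 in KO and 2.69, 5.17, 3.91, 3.64 and 3.15 in transferred colon, so that every library of the Cre genotype lay above every control library. The log2 ratio of H2-DMa to H2-Oa was 3.96 to 4.96 in control, 4.92 to 5.41 in KO and 4.53 to 6.24 in transferred colon, and these ranges overlapped. Between control and KO the overlap was narrow, and H2-Oa had only 7 to 13 reads in the control libraries. Ratios were not tested.

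**Figure D2:**
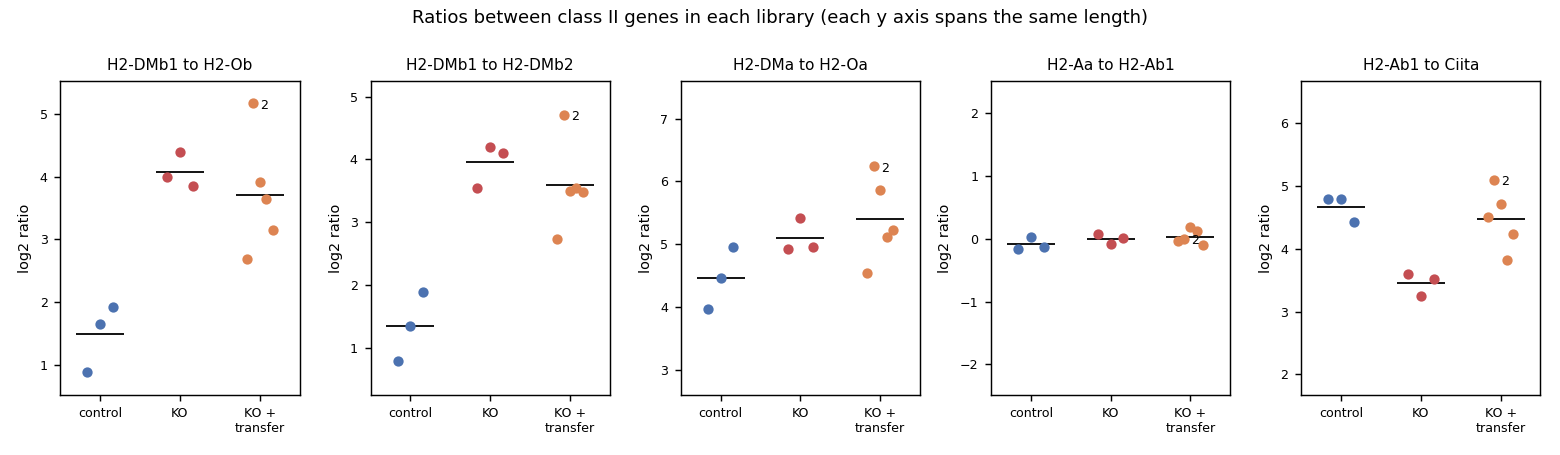
Log2 ratios between class II genes in each library (y axes of equal length), by group, with the mean as a line and the digit 2 marking transferred replicate 2. H2-Aa to H2-Ab1 stayed within -0.16 and 0.19, whereas H2-DMb1 to H2-Ob and H2-DMb1 to H2-DMb2 were higher in all KO and transferred libraries than in control, and H2-Ab1 to Ciita was lowest in KO.

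Transferred colon stood between KO and control. Against KO colon 9 of the 10 members fell, by 2.14-fold (H2-DMa) to 4.55-fold (Ciita), beside falls in 14.2% of all genes tested and differences in either direction in 31.2%. All calls split into 2860 higher and 2380 lower, and into 3208 and 807 under epithelial marker scaling. The median log2 fold change of the members was -1.21, beside -0.02 over all genes. For 9 members every transferred library lay below every KO library, as for 16.6% of all genes tested. The exception in both counts was H2-Ob (log2 fold change -1.21 ± 0.52 SE, adjusted p = 0.0964, limma). H2-DMb2 passed narrowly (log2 fold change -1.21 ± 0.43 SE, adjusted p = 0.0497), and its call was lost in 16 of 24 alternative settings, with adjusted p from 0.0277 to 0.140 over the alternatives. The call of H2-Oa (log2 fold change -1.40 ± 0.39 SE, adjusted p = 0.0184) was lost in 3 of 23, without KO replicate 1, without KO replicate 4 and when libraries were scaled to their epithelial markers.

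Against control colon 7 of the 10 members remained higher after the transfer. Of all genes tested, 1.60% differed between transferred and control colon and 1.14% were higher. Cd74 was 8.41-fold higher (log2 fold change 3.07 ± 0.24 SE, adjusted p = 0.000141), H2-DMb1 8.82-fold (3.14 ± 0.23, adjusted p = 0.000141), Ciita 6.94-fold (2.79 ± 0.37, adjusted p = 0.0101), H2-Aa 6.58-fold, H2-Ab1 6.08-fold, H2-DMa 4.83-fold and H2-Eb1 4.59-fold (limma). Ordered by p among the 16781 genes, H2-Ab1, H2-DMb1, Cd74 and H2-Aa took the places 1 to 4, H2-DMa 6, H2-Eb1 7 and Ciita 12. In these 7 genes every transferred library lay above every control library, as in 6.09% of all genes tested. Ciita lost its call without control replicate 2 (adjusted p = 0.0827), and the other 6 kept theirs in all 24 alternatives.

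H2-DMb2, H2-Oa and H2-Ob did not pass the test against control. Their log2 fold changes were 0.89 ± 0.43 SE (adjusted p = 0.281), 1.34 ± 0.39 (adjusted p = 0.0992) and 0.91 ± 0.52 (adjusted p = 0.357, limma). Without transferred replicate 2 all 3 passed, with log2 fold changes of 1.27, 1.61 and 1.37 and adjusted p of 0.0208, 0.0215 and 0.0279. H2-Oa also passed with DESeq2 on the recovered reads (adjusted p = 0.0226). The 3 comparisons share libraries, so the changes from control to KO and from KO to transferred colon are not independent of each other.

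**Figure D3:**
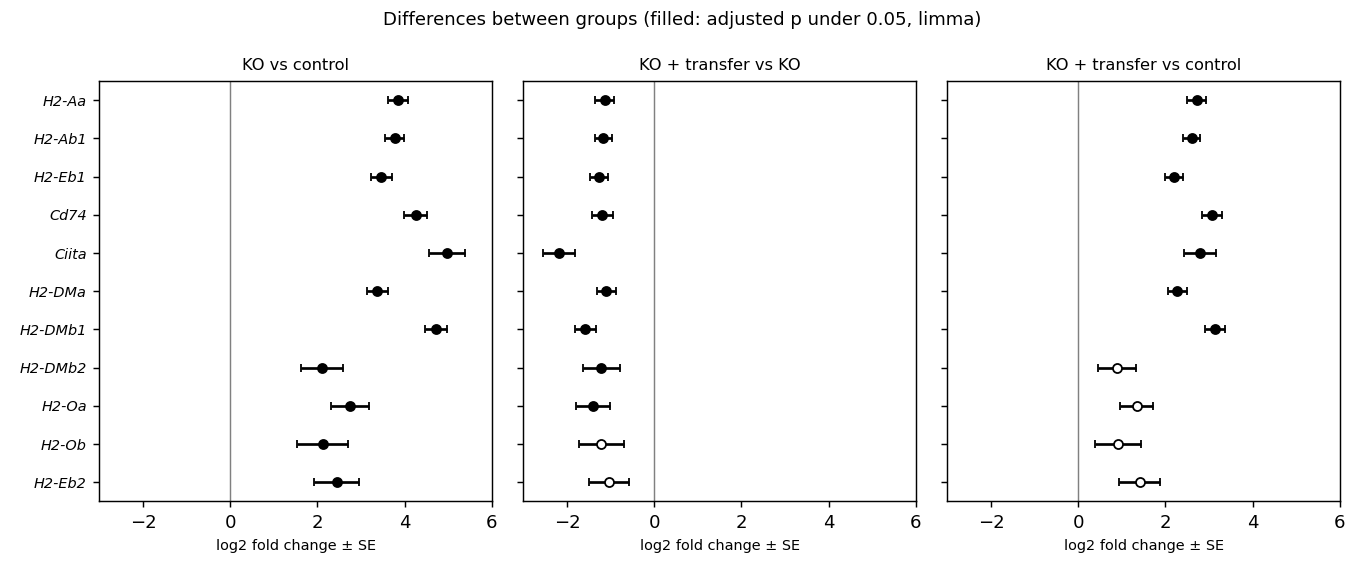
Log2 fold change with its standard error for the 10 members and H2-Eb2 in each comparison; filled points have an adjusted p under 0.05 (limma). After the transfer the classical chains, Cd74, Ciita, H2-DMa and H2-DMb1 lie 2.20 to 3.14 above control, whereas H2-DMb2, H2-Oa, H2-Ob and H2-Eb2 are open points between 0.89 and 1.41.

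Levels were compared between genes per kilobase of canonical transcript. In control colon the order was Cd74 (mean 2243 normalized counts per kilobase), H2-Aa (1242), H2-Ab1 (1232), H2-Eb1 (769), H2-DMa (218), H2-DMb1 (94.5), H2-DMb2 (34.6), H2-Ob (17.1), H2-Oa (8.34) and Ciita (7.98). The ranges over libraries overlapped between H2-Aa and H2-Ab1, between H2-Ab1 and H2-Eb1 and between H2-Oa and Ciita, and not between the other neighbours. In KO colon Cd74 stood at 41838, H2-Aa at 17671 and H2-Ab1 at 16406. H2-DMb1 (2420.2) passed H2-DMa (2151), although their ranges overlapped. Ciita (242) moved from the last place to the seventh, above H2-DMb2 (151), H2-Ob (75.3) and H2-Oa (60.2), of which only H2-Ob and H2-Oa overlapped as neighbours. In transferred colon Cd74 stood at 18945 and Ciita at 58.5, in the eighth place behind H2-DMb2 (73.0), with overlapping ranges. Together the members made up 0.0331% to 0.0521% of all normalized counts in control, 0.623% to 0.65% in KO and 0.205% to 0.409% in transferred colon.

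The transcription factors that bind class II promoters with CIITA moved little. Of 7 genes (Rfx5, Rfxap, Rfxank, Creb1, Nfya, Nfyb and Nfyc), 2 passed as higher in KO colon and none as lower. Log2 fold changes ran from -0.36 to 0.47. Rfxank was the lowest, with 431 to 624 normalized counts in control and 372 to 429 in KO, and did not pass. Rises made up 22.7% and falls 22.9% of all genes tested. Nfyb, a subunit of the CCAAT-binding factor, had 398 to 455 normalized counts in control and 536 to 629 in KO (log2 fold change 0.47 ± 0.10 SE, adjusted p = 0.00342). Creb1 had 422 to 518 in control and 572 to 699 in KO (0.45 ± 0.13, adjusted p = 0.0132, limma). These rises lost their call in 2 (Nfyb) and 4 (Creb1) of 24 alternatives, among them scaling to epithelial markers, with log2 fold changes of 0.25 (adjusted p = 0.208) and 0.23 (adjusted p = 0.259). Under epithelial marker scaling 1 of the other factors passed as lower, where 4706 of 16802 genes did. Nfyb and Creb1 fell in transferred against KO colon, but these falls lost their call in 14 (Nfyb) and 6 (Creb1) of 24 alternatives. Against control no factor passed with limma, edgeR or DESeq2, with 1 of 7 at an unadjusted p under 0.05. Only 1.60% of all genes tested passed in that comparison with limma.

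The genes of the interferon gamma route, which is upstream of Ciita, were mostly higher in KO colon. Of 7 tested, 6 rose, Ifng among them, and none fell, beside rises in 22.7% of all genes tested. Ifngr2, a receptor chain, did not pass. Ifng itself had no read in any control library, 30.3, 88.2 and 66.8 normalized counts in KO and 2.01 to 8.21 in transferred colon. It reached the average needed for a test only through its KO libraries. Against a floor of 3 reads in each control library the mean of Ifng over the KO libraries was at least 20.3-fold higher. Jak1, a kinase of the receptor, had 1423 to 1486 normalized counts in control, 1923 to 2127 in KO and 1378 to 1768 in transferred colon (log2 fold change in KO against control 0.48 ± 0.10 SE, adjusted p = 0.0023, limma). That call was lost in 2 of 24 alternatives. Irf1 and the feedback inhibitor Socs1 rose 2.65-fold and 17.2-fold.

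After the transfer 5 of the 7 fell against KO colon, Irf1 by 1.99-fold and Socs1 by 9.13-fold, beside falls in 14.2% of all genes tested. Against control 1 of 7 passed, Ifng, at the edge of the threshold (adjusted p = 0.0466, limma), from a few reads and tested only because of its KO level. Its call was lost in 13 of 22 alternatives, and none of the 7 passed with edgeR. Irf1 was 1.33-fold above control (adjusted p = 0.192) and Socs1 1.88-fold (adjusted p = 0.286), while Ciita was 6.94-fold above it and passed. Whether these distances to control differ was not tested.

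Genes of endosomal processing, the proteases and the reductase that prepare antigen and trim the invariant chain, were mixed. Of 10 tested, 4 rose in KO colon (Ctse, Lgmn, Ifi30 and Ctsh) and 2 fell (Ctsl and Ctsd). Of all genes tested 22.7% rose and 22.9% fell. The small rises of Ifi30 and Ctsh lost their calls in 5 and 4 of 24 alternatives. Lgmn, the asparaginyl endopeptidase, rose from 1418 to 1888 normalized counts in control to 3724 to 4809 in KO (log2 fold change 1.40 ± 0.20 SE, adjusted p = 0.000283). Ctse rose 7.63-fold from a low level. Ctsl, the cathepsin that trims the invariant chain in thymic epithelium, fell from 3834 to 4347 normalized counts to 1702 to 2632 (-0.996 ± 0.19, adjusted p = 0.00162, limma), and Ctsd fell 1.35-fold. Ifi30, which reduces disulfide bonds in the endosome, and Ctsh rose 1.24-fold and 1.36-fold. The median log2 fold change of the list was 0.20.

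In transferred against KO colon Ctsl and Ctsd rose and Lgmn fell, but the calls of Ctsd and Lgmn were lost in 13 and 5 of 24 alternatives. Against control none of the 10 passed with limma or edgeR, with 5 at an unadjusted p under 0.05 and 2 called by DESeq2. Few genes passed there at all, 1.60% of those tested with limma. Of 3 genes that act on class II turnover at the membrane, Marchf1, a ubiquitin ligase for class II, rose in KO colon from 14.3 to 22.9 normalized counts to 86.5 to 115 (log2 fold change 2.39 ± 0.34 SE, adjusted p = 0.000249) and was at 25.1 to 73.4 in transferred colon. Marchf8 (log2 fold change -0.27, adjusted p = 0.0937) and Cd83 (0.02, adjusted p = 0.966) did not pass, although Marchf8 passed as lower in 5 of 24 alternatives. Of the receptors that bind class II, Cd4 rose 4.82-fold and Lag3 2.64-fold in KO colon, and Lag3 fell 2.22-fold after the transfer (adjusted p = 0.0125, limma).

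**Figure D4:**
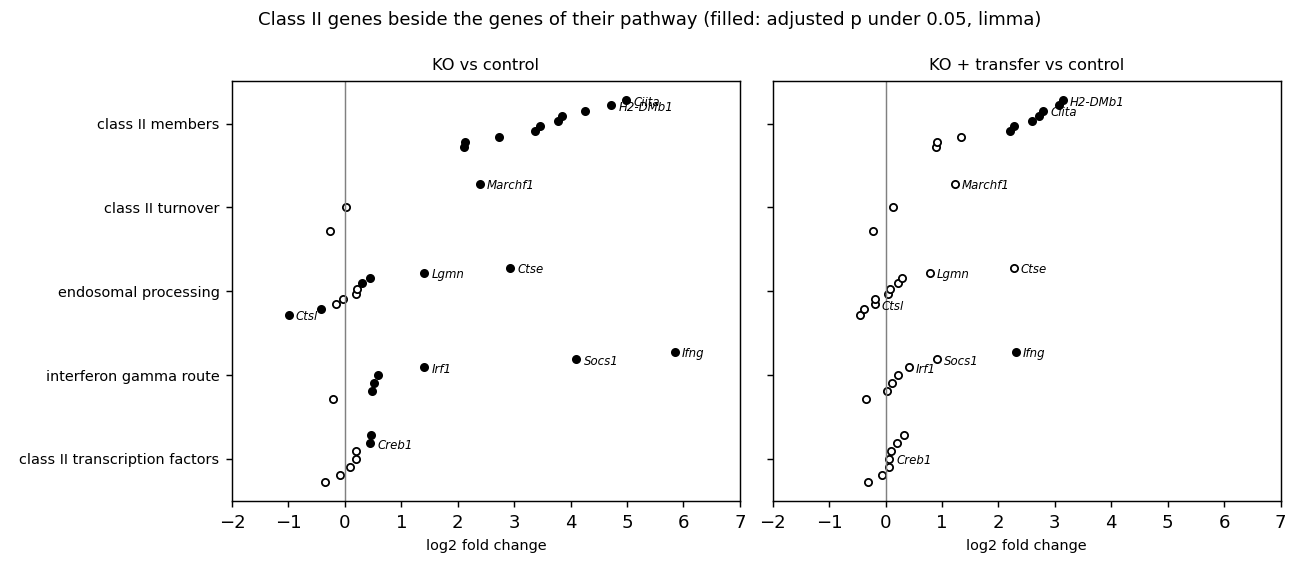
Log2 fold change of the members and of the listed genes of their pathway in KO and in transferred (KO + transfer) colon, each against control; each point is a gene and filled points have an adjusted p under 0.05 (limma). In KO colon all class II members and 6 of the 7 interferon gamma route genes lie to the right of 0, Ifngr2 lies to the left (-0.22), and the transcription factors stay between -0.36 and 0.47; in transferred colon 7 class II members and Ifng are filled.

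Markers of cells that carry class II were mostly higher in KO colon too, where 22.7% of all genes tested rose. The summed B cell markers were 143 to 526 normalized counts in control, 1281 to 1586 in KO and 191 to 1101 in transferred colon, and 9 of 10 rose in KO colon, among them Blk, Cd79b, Fcmr and Cd79a. None of these 10 passed in transferred against control colon with limma or edgeR, with 5 at an unadjusted p under 0.05 and 1 called by DESeq2. The share of all genes tested that passed there with limma was 1.60%. The dendritic cell markers summed to 262 to 368 in control, 946 to 982 in KO and 313 to 777 in transferred colon, and of 9 tested 6 rose in KO colon, among them Ccr7, Itgax and Xcr1, while Clec10a and Cd209a fell. The macrophage markers summed to 3514 to 5309, 8955 to 10375 and 4826 to 7771, with 9 of 12 higher in KO colon, among them Cd14 and Fcgr1, and Mertk lower. No marker of these 3 lists was at 0 in all libraries of a group, and their part in the class II differences was not tested. The T cell markers, whose cells lack class II in mice, summed to 294 to 335 in control, 1464 to 1467 in KO and 488 to 1608 in transferred colon.

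The sum of H2-Aa, H2-Ab1 and H2-Eb1 stood further above control in KO colon than any of these marker sums, without a test of the difference. The mean of KO colon was 12.9 times that of control for the chains, 4.99 times for the B cell, 2.93 times for the dendritic cell, 2.21 times for the macrophage and 1.14 times for the epithelial markers. The sums depend on which markers are abundant, and some of these fell. Clec10a averaged 123 of 328 dendritic cell counts in control and 59.7 in KO colon. Mertk averaged 1104 of 4347 macrophage counts in control and 485 in KO colon. Ccr7 rose more than its sum, from a mean of 7.62 to 95.0. The log2 ratio of the chains to the macrophage markers was -0.32 to 0.12 in control, 2.28 to 2.67 in KO and 1.70 to 2.05 in transferred colon, with no overlap between groups. To the dendritic cell markers it was 3.25 to 3.87, 5.71 to 5.86 and 5.27 to 6.00, and to the B cell markers 2.86 to 4.76, 5.11 to 5.29 and 4.49 to 6.55. To the epithelial markers it was -6.80 to -6.09, -3.02 to -2.71 and -4.53 to -3.48. The ratio to B cell markers thus overlapped between transferred and control colon, and the others did not.

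Transferred replicate 2 was the lowest library of its group for H2-O and for the markers of several immune cell types. It had the lowest B cell marker sum of its group (191, against 642 to 1101 in the other 4) and the lowest sum of H2-Oa and H2-Ob (35.2, against 97.3 to 207), which lay below the control range of 39.8 to 69.7. The classical chains of the same library summed to 18005, against 3385 to 5395 in control and 19142 to 32279.9 in the other 4. It was also lowest for the summed plasma cell (47358), dendritic cell (313), macrophage (4826) and T cell (488) markers. Its smooth muscle marker sum was the highest of the group (156328, against 96311 to 140124 in the other 4). Without this library the 3 genes H2-DMb2, H2-Oa and H2-Ob passed the test against control, as given above.

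**Figure D5:**
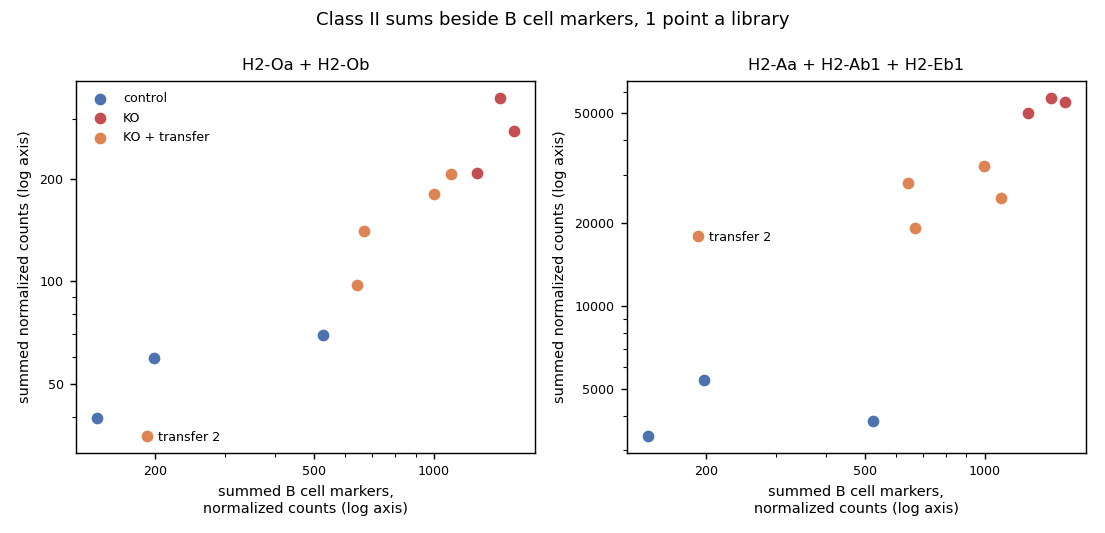
Summed normalized counts of H2-Oa and H2-Ob (left) and of H2-Aa, H2-Ab1 and H2-Eb1 (right) against the summed B cell markers, all on log axes, 1 point a library. Transferred replicate 2 lies with the control libraries on the left (35.2) and above them on the right (18005, against at most 5395).

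Genes with the most similar pattern were sought over the 11 libraries, by the root mean square difference between log2 profiles after subtracting each gene's mean, among genes that averaged 50 or more normalized counts. For the mean of the 3 classical chains and Cd74 the nearest were H2-DMa (0.24), H2-DMb1 (0.35), Psmb8 (0.42), Gata3 (0.43) and Pla2g5 (0.45). For Ciita they were Nlrc5 (0.32), H2-DMb1 (0.36), Serpina3g (0.42), Gata3 (0.51) and Gbp8 (0.52). For the mean of H2-Oa and H2-Ob they were H2-DMb2 (0.23), Coro1a (0.25), Wdfy4 (0.27), Hvcn1 (0.30) and Ncf4 (0.31). H2-DMa and H2-DMb1 thus fell nearest to the classical chains and H2-DMb2 nearest to H2-O, among 13381 and 13384 genes compared.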

How the data were processed

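Whole colon RNA in 3 control, 3 Tfam fl/fl Cd4 Cre and 5 transferred libraries was analysed, grouped by the sample descriptions. No animal is named in the labels, which only number the libraries. The p-values thus rest on the spread among libraries, which differed by more than counting error within each group (chi-square per gene 20.2 to 101). The authors deposited 1 table of signal values, normalized counts per gene, made by dividing read counts by 1 factor per library. The submitters' processing notes name HISAT2 2.2.1, SAMtools 1.13, HTSeq 1.99.2, DESeq2 1.40.2 and GRCm39, and the paper's methods stranded mRNA. A single factor scales all genes alike, so changes in tissue makeup stay in the values. For the annotation release and the counter's settings, the sources used here give nothing.

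Whole reads were recovered from the steps of the values (100% whole within 0.05), with 1 read worth 0.913 to 1.10 normalized counts and 18214741 to 19178986 reads per library. Identifiers were matched to GENCODE on GRCm39 (99.2%). Genes averaging 10 or more normalized counts were tested in 1 limma fit of all 3 groups (version 3.58.1 under R 4.3.3), in log2 after adding 1, letting the variance follow the level; adjusted p under 0.05 was a call. It was tested on simulated data. Alternatives were pseudocounts of 0.5 and 10, all genes unfiltered or only those averaging 50, TMM and quantile scaling, edgeR (4.0.16) and DESeq2 (1.42.0) on recovered reads, 2 groups only, no trend, a replicate block, the paper's threshold of unadjusted p and a log2 fold change over 0.6, each library left out, and scaling by epithelial markers, chosen after seeing the data. The members and gene lists were chosen with earlier results of these data known. Of each list longer than 4 genes, up to 4 with the smallest adjusted p in KO against control were named, plus those that moved against the rest, and the others that passed were named after their values were seen. No library repeated another. Promoter sequence came from GRCm39 around canonical GENCODE starts; none is shown for Cd74. 1 gene of the interferon gamma route list is not reported here.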

Additional observations from a re-analysis of the deposited data

Results flagged for a closer look

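Among 60 values examined in the group of 5 transferred libraries (members, listed genes, sums and ratios), 2 had a library whose gap to the nearest other, as a share of the whole range, passed Dixon's 95% limit of 0.71. Chance alone passes about 1 in 20 such groups. Ifi30 had 2706 normalized counts in transferred replicate 3 against 2304 to 2376 in the other 4 (gap share 0.82). Marchf8 had 2195 in transferred replicate 5 against 1508 to 1699 (gap share 0.721). No class II member passed this limit, although transferred replicate 2 was the lowest of its group for 9 of the 10.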

How the results depend on the processing

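The number of class II genes past the test was 9 to 10 in KO against control, 7 to 10 in transferred against KO and 6 to 10 in transferred against control over the 24 alternatives, and no member turned its direction in any of them. Leaving out 1 library gave 10, 7 to 9 and 6 to 10. With the replicate block the counts were 10, 8 and 7, and it changed 1 member's call, that of H2-DMb2 in transferred against KO (log2 fold change -0.87). Same-numbered libraries did not deviate together throughout (correlations -0.10 to 0.39). In transferred against control the correlations were 0.39, 0.27 and -0.10 for replicates 1, 2 and 3. Differently numbered libraries of these groups gave -0.40 to 0.28. The labels name no pairs, so the numbers were not taken as pairs in the main fit, and a shared deviation of some of them was not excluded. Over all genes, transferred against control gave 268 calls, but 930 with the replicate block, 177 with edgeR, 1236 with DESeq2, 83 with epithelial marker scaling, 145 without the variance trend, 23 with only the 2 groups, 1663 with the unadjusted threshold, and 11 to 836 without 1 library. Transferred against KO gave 5240 calls, and 3090 without KO replicate 3 and 3359 without KO replicate 4. The causes were not tested.

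Epithelial marker scaling, chosen after seeing the data, moved the median log2 fold change of all genes to -0.20 in KO against control and 0.14 in transferred against KO. Among changes that passed no test it turned the sign of several, including Tfam in KO against control (-0.16) and transferred against KO (0.093), Ctsh (0.0055) and Ifi30 (0.070) in transferred against KO, and Cd83 (-0.19), Rfx5 (-0.12), Rfxap (-0.020), Nfya (-0.0085), Ctsb (-0.0066) and Ctsz (-0.013) in KO against control. Cd83 in KO against control was also -0.020 with DESeq2, -0.011 with edgeR and -0.062 with the replicate block, which gave Marchf8 -0.069 in transferred against KO. TMM scaling gave Tfam 0.0040 in transferred against control. Without 1 library Cd83 ran from -0.26 to 0.19, -0.060 to 0.28 and -0.15 to 0.29 in the 3 comparisons, Marchf8 from -0.048 to 0.088 in transferred against KO, and Creb1 from -0.0066 to 0.14 and Tfam from -0.046 to 0.047 in transferred against control. H2-Oa rests on about 10 normalized counts per control library, which limits its precision.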
